A study of Mus musculus with 6 samples.

Results

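The cells described here are the cardiomyocytes of adult mouse hearts that the authors placed in their clusters CM1, CM2 and CM3, compared between mice with an active form of YAP and Control mice. They were chosen by the authors' cluster name alone. The cardiomyocytes of a further cluster, YAP5SAcm, which the authors named after the transgene, were left out, so that the genotypes were compared in cardiomyocyte clusters that both held in number. The rule found 3451 of the 21706 cells in the series, 2718 from Control and 733 from YAP5SA hearts. Control mice carried Myh6-MCM, the tamoxifen-inducible Cre recombinase MerCreMer under the heart muscle promoter of Myh6. YAP5SA mice carried Myh6-MCM and the transgene Yap5SA+/tg, which codes for a YAP isoform that the kinases Lats1 and Lats2 can no longer phosphorylate. All mice were adult and received tamoxifen, so both genotypes share the Cre and the drug, and the transgene is limited to Myh6-expressing cells; the dose, the interval before harvest and the age in weeks are not given in the sources used here. Single cells were captured by Drop-seq, which counts unique molecular identifiers (UMIs) at the 3′ end of each transcript. Each genotype had 3 libraries: 1 of the settled cardiomyocyte fraction after collagenase digestion (enriched) and 2 in which that fraction was joined again with the other cells of the heart (tissue). Counts of CM1, CM2 and CM3 cells were summed per library, and the 6 sums were compared with preparation as a term. The labels do not say how many hearts went into a library, so the spread between libraries may be partly technical.

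YAP is a transcriptional coactivator at the end of the Hippo pathway. The kinases Stk3 and Stk4 activate Lats1 and Lats2, which phosphorylate YAP and keep it out of the nucleus. Unphosphorylated YAP enters the nucleus, binds TEAD transcription factors and turns on genes of growth, the cytoskeleton and the matrix. In the adult heart the pathway is known for holding cardiomyocytes out of the cell cycle.

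The libraries differed in cell number and depth. In the order Control enriched, tissue-2, tissue-3 and YAP5SA enriched, tissue-1, tissue-2, CM1 to CM3 held 1052, 526, 1140, 523, 131 and 79 cells. Between 313582 and 7229517 UMIs were summed per library, so that 1 UMI was worth 0.139 to 0.473 CPM (UMIs scaled to a common library total) in the 3 Control and the enriched YAP5SA libraries and 3.19 and 3.10 in YAP5SA tissue-1 and tissue-2. Heart muscle markers were present in all 6 sums, with 10 genes together at 66001 to 89635 CPM in Control and 53082 to 58670 in YAP5SA. In the 3 YAP5SA libraries 6 of 6 T and NK cell markers and 4 of 4 neutrophil markers were at 0. In Control these lists summed to at most 3.68 and 0.921 CPM. That is about or below the worth of 1 UMI in YAP5SA tissue-1 and tissue-2, so 0 there says little. Macrophage markers were present and are given below. Of all cardiomyocytes, those left out as YAP5SAcm made up 1.498%, 8.68% and 2.81% in Control and 47.9%, 61.8% and 71.99% in YAP5SA. Only 6 barcodes of these cells, 2 from the enriched and 4 from the tissue-3 library of Control, occurred in another library. Control tissue-2 stood apart from the other Control libraries in the sum of 5 markers of atrial muscle. It was 30431 CPM there, against 380 and 730, and 11609 to 14367 in YAP5SA. The median of the 5 did not set it apart, as log2 level around each gene's own mean over the 6 libraries. That median stood at -4.81, -1.43 and 0.05 in Control and -0.26, 2.98 and 2.63 in YAP5SA. Results are given with and without Control tissue-2 where it matters. Yap1 stood at 19.5, 17.6 and 19.1 CPM in Control and 16.04, 38.7 and 14.9 in YAP5SA (log2 fold change 0.24 with an SE of 0.45, edgeR adjusted p = 0.828). Whether the transgene's transcript carries the counted 3′ end of Yap1 is not stated, so these values do not check the labels.

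Of 10336 genes with enough counts to test, 16 were higher in YAP5SA and none was lower, by edgeR's quasi-likelihood test with a Benjamini-Hochberg adjusted p under 0.05. These are 0.155% of the genes tested. At an unadjusted p under 0.05, 905 genes were higher and 905 lower, 8.76% each way. For 1309 genes (12.7%) all 3 YAP5SA libraries lay above all 3 Control libraries, and for 1277 (12.4%) all lay below. All 16 called genes are in the first group and were thus, by that alone, higher in YAP5SA whichever library was left out. The number of calls was not stable. It was 0 without Control enriched, without any 1 of the YAP5SA libraries and in the tissue libraries alone, with 1645, 1583, 1148, 847 and 1537 genes at an unadjusted p under 0.05 (without Control enriched, YAP5SA enriched, tissue-1 and tissue-2, and tissue alone). It was 4 without Control tissue-3, and leaving out Control tissue-2 raised it to 1522 (740 higher, 7.49% of 9875, and 782 lower, 7.92%). Control tissue-2 was the Control library nearest to YAP5SA for 54.1% of the 1309 genes above and 68.6% of the 1277 below. Counts without it are thus a description and no support for a change. DESeq2 called 517 of the 10755 genes to which it gave an adjusted p, 218 higher and 299 lower. All 16 genes were among the calls of DESeq2, and all 16 were also called without Control tissue-2. The counts of list members given below are to be read beside these shares of all genes. They are 8.76% each way at an unadjusted p under 0.05, and 7.49% higher and 7.92% lower for calls without Control tissue-2. Calls by DESeq2 among list members are to be read beside its 218 higher and 299 lower of 10755 genes. Levels are CPM after edgeR's scaling of library sizes unless called unscaled, and positive log2 fold changes mean higher in YAP5SA.

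Of the called genes, S100a6, Timp2, Pmp22, Cald1, Tagln, Mcam and Col4a4 are described first, since they act at the cell surface, in the matrix or in the cytoskeleton; no enrichment of such genes was tested. S100a6, a calcium-binding protein, had 5.31 CPM in the enriched Control library, 42.8 in tissue-2 and 30.2 in tissue-3, and 226, 350.5 and 536 CPM in the enriched, tissue-1 and tissue-2 libraries of YAP5SA, the order used throughout. Its lowest YAP5SA library was more than 5 times its highest Control library (log2 fold change 4.14 with an SE of 0.51, edgeR adjusted p = 0.0367). Timp2, an inhibitor of matrix metalloproteinases, stood at 24.8, 44.8 and 39.5 CPM in Control and 179, 338 and 293 in YAP5SA (2.88, SE 0.34). Pmp22, a membrane protein best known from myelin, stood at 8.41, 32.3 and 26.8 against 109, 167.5 and 231 CPM (3.05, SE 0.38). In each of these genes the enriched library was the lowest of its genotype. Cald1, caldesmon, which binds actin and myosin, went from 10.6, 36.1 and 18.6 to 98.5, 167.5 and 166 CPM (2.80, SE 0.39). Tagln, transgelin, an actin-binding protein of smooth muscle, went from 0.885, 3.20 and 2.37 to 12.03, 74.7 and 24.8 CPM (4.05, SE 0.56). YAP5SA tissue-1 held the highest value of Tagln, and YAP5SA enriched was still above every Control library. Mcam, an adhesion molecule of endothelium and smooth muscle, went from 2.53 ± 1.81 to 42.0 ± 19.6 CPM (mean and SD, n = 3 libraries each; 4.16, SE 0.53). Col4a4, a collagen of basement membranes, stood at 0, 0.959 and 1.28 CPM in Control and 11.6, 36.1 and 19.8 in YAP5SA (4.85, SE 0.67). The adjusted p was 0.0367 for each of these genes.

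Myl4, the myosin light chain of atrial and embryonic heart muscle, had the widest spread of the called genes. It stood at 3.54, 78.0 and 178 CPM in Control and 216.5, 1487 and 2185 in YAP5SA (log2 fold change 4.42 with an SE of 0.61, edgeR adjusted p = 0.0367). The enriched library of YAP5SA was only just above Control tissue-3, and 1 cell held 398 of the 1944 Myl4 UMIs of YAP5SA. That cell was in YAP5SA tissue-2, where 16 of 79 cells held 881 Myl4 UMIs. In Control tissue-3, 40 of 1140 cells held 976, with 158 in 1 cell. The atrial partners of Myl4 pointed the same way without passing, and both overlapped between the genotypes. Myl7 had a log2 fold change of 4.03 (edgeR adjusted p = 0.0972) and Sln, sarcolipin, of 3.68 (0.242). Without Control tissue-3, Myl4, Sln, Myl7 and Mlana were the 4 genes called.

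The other called genes were close to absent from Control CM1 to CM3. Mlana, a protein of melanosomes, had the smallest p. It stood at 0, 1.28 and 0.364 CPM in Control and 17.4, 82.5 and 54.6 in YAP5SA (log2 fold change 6.56 with an SE of 0.64, edgeR adjusted p = 0.0269). This rests on 6 UMIs in 5 of 2718 Control cells and 93 UMIs in 59 of 733 YAP5SA cells. Cemip, which takes part in the breakdown of hyaluronan, had no UMI in any Control library and stood at 8.91, 46.4 and 17.4 CPM in YAP5SA, 45 UMIs in all. With 3 counts taken as the floor for Control as a whole, it was at least 72.6-fold higher in unscaled CPM. Cmtm5, a membrane protein of the MARVEL family, stood at 0.442, 0.320 and 0.546 CPM in Control and 12.9, 23.2 and 14.9 in YAP5SA (5.09, SE 0.65). Fam107b stood at 1.77, 0.639 and 1.82 CPM against 23.6, 15.5 and 34.7 (4.04, SE 0.59, adjusted p = 0.0460).

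For 4 called genes Control held only 2 or 3 UMIs in total, so the size of the change is loose. Vgll3, a cofactor that binds TEAD factors as YAP does, stood at 0, 0.320 and 0.364 CPM in Control and 13.8, 20.6 and 12.4 in YAP5SA. Its ratio of pooled counts was 71.0, with a 95% counting interval from 22.8 to 358. For 1500015O10Rik, named Ecrg4 by RefSeq, which codes for a precursor of secreted peptides, the ratio was 85.6 (27.7 to 428), and its YAP5SA values were 16.04, 25.8 and 17.4 CPM. The chemokine gene Ccl17 had a ratio of 87.2 (22.4 to 747), and 1190002F15Rik, the long non-coding RNA Lockd beside Cdkn1b, had 66.2 (21.1 to 334; edgeR adjusted p = 0.0401). These ratios are of unscaled counts, and their intervals cover counting error only. In all 4 genes every YAP5SA library was above every Control library, as the plot of the 16 called genes shows.

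**Figure D1:**
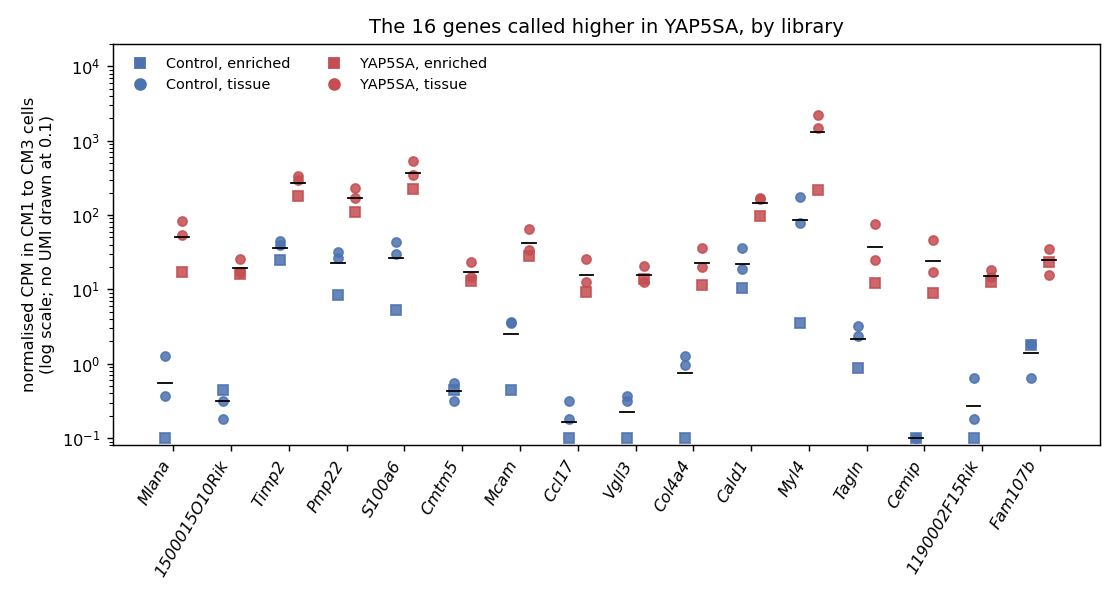
Normalised CPM (log axis) of the 16 called genes in CM1 to CM3, 1 point per library, Control blue and YAP5SA red, squares for the enriched and circles for the tissue libraries, with black bars at the group means and libraries without a UMI drawn at 0.1. In every gene the 3 YAP5SA points lie above the 3 Control points, and Myl4 has the smallest gap, from 178 to 216.5.

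The sequence before the start of 4 of these genes is shown because YAP acts on DNA through TEAD factors, whose core motif GGAATG occurs there. RefSeq promoter entries (build GRCm38.p6) were found for 14 of the 16 called genes, not for Mlana and Tagln. The 250 bases before each start were searched on both strands for GGAATG, which reads CATTCC on the opposite strand. It occurred in 5 of the 19 promoters of these genes, each of another gene, and in 12.6% of all 32851 promoters of that length. Capitals mark the motif, and all 4 genes lie on the plus strand: Vgll3 at chr16:65814939-65815188, Ecrg4 at chr1:43730352-43730601, Pmp22 at chr11:63128732-63128981 (1 of its 4 entries) and Ccl17 at chr8:94810203-94810452.
Vgll3: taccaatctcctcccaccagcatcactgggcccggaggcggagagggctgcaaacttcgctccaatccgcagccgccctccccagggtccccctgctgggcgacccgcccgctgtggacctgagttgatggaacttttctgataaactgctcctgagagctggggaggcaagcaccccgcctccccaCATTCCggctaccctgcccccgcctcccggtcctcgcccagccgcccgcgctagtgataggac
1500015O10Rik (Ecrg4): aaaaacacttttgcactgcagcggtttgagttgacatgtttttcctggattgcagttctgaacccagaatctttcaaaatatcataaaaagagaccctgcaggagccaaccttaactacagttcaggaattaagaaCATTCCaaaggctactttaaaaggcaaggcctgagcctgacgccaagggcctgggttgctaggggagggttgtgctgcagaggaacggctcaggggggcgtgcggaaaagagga
Pmp22: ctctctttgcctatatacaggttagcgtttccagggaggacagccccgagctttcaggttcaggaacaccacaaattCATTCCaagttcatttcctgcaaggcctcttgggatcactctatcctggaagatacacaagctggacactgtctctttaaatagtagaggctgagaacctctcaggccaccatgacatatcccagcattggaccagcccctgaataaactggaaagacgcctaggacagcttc
Ccl17: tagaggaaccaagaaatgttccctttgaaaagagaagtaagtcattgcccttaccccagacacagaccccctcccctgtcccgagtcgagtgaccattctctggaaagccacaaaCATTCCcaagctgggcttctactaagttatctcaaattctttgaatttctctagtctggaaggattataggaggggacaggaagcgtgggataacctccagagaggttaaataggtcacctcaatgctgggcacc
The motif stands 63, 114, 173 and 135 bases before the start in these 4, in that order, and Cald1 has it 153 bases before 1 of its starts. The AP-1 motif TGANTCA was found before Cald1 and Fam107b, 2 of the 19 promoters, against 6.75% of all promoters. A match in a window of this size describes letters, not binding.

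The clusters that held a called gene's UMIs differed from gene to gene. Of all YAP5SA UMIs of these cells, 65.2% lay in CM1, 16.7% in CM2 and 18.1% in CM3, which is the base for the shares that follow. The 93 Mlana UMIs lay close to it, with 64 in CM1, 12 in CM2 and 17 in CM3, and the mean unscaled level was 83.0 CPM in CM1, 52.9 in CM2 and 36.0 in CM3. Vgll3 had 39 of 44 in CM2 (88.6%) and Tagln 53 of 66 (80.3%), while Cmtm5 had 77.3% and Fam107b 75.3% there. S100a6 had 52.3% and Pmp22 49.1% in CM2. Per UMI S100a6 was thus higher in CM2, with a mean unscaled level of 1544 CPM against 288 in CM1 and 270 in CM3, and so was Pmp22, with 630 against 124 and 167. Mcam had 11.8% in CM2 and 52 of its 102 UMIs in CM3. These shares are a description, with no test. Fitted in CM1 alone, 2 of 9257 genes were called, Mlana (adjusted p = 0.00890) and Myl4. In CM3 alone 2 of 4873 were called, Acta2, smooth muscle actin (log2 fold change 3.95), and Abhd17c (3.36), a pair named after its values were seen.

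**Figure D2:**
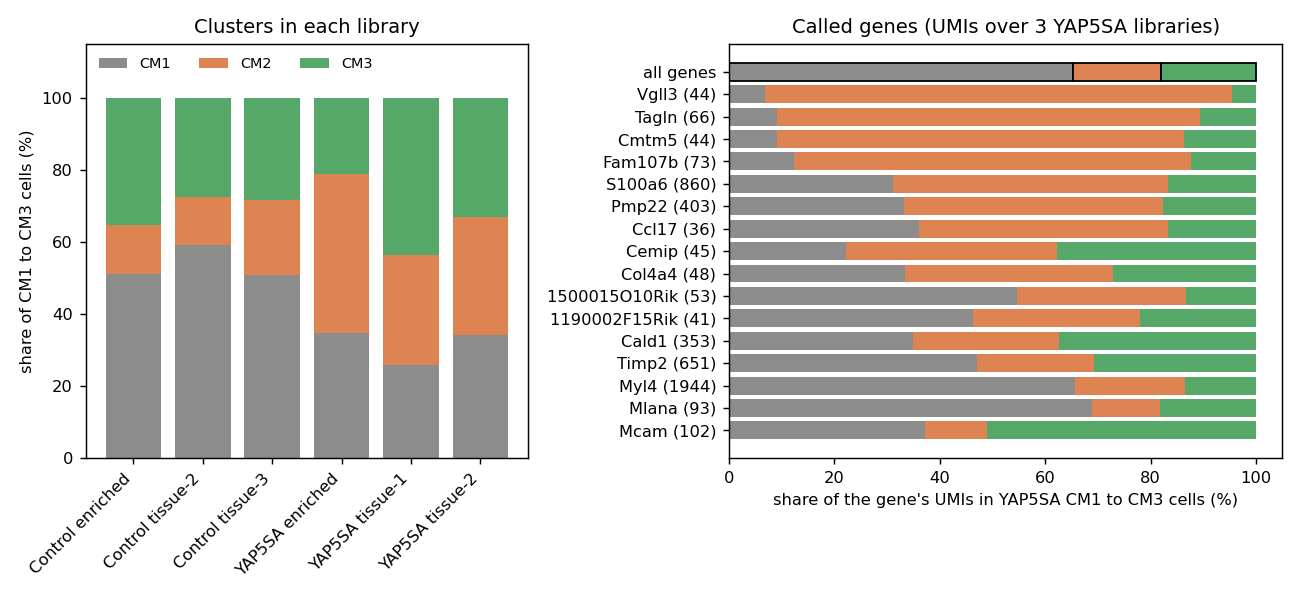
Left, share of the CM1 to CM3 cells of each library in CM1, CM2 and CM3 (percent); right, share of each called gene's YAP5SA UMIs (total in brackets) in the 3 clusters, with the outlined bar for the UMIs of all genes. CM2 has a larger share of the cells in YAP5SA than in Control, 30.5% to 44.2% against 13.3% to 20.8%; it holds 16.7% of all UMIs, 88.6% of those of Vgll3 and 12.9% of those of Mlana.

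Most called genes were higher still in the cells that the rule left out. In 14 of the 16, the unscaled CPM of YAP5SAcm cells exceeded that of CM1 to CM3 in each of the 3 YAP5SA libraries, for Cemip with means of 763 and 29.5. Mlana and Myl4 were the exceptions. Mlana had a mean of 42.7 CPM in YAP5SAcm and 62.9 in CM1 to CM3, and Myl4 had 309 and 1599.

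The response was set against that of other cells of the same libraries by testing the difference of the genotype effects. It differed for 124 of 12082 genes (1.03%) from fibroblasts, for 269 of 12900 (2.09%) from macrophages and for 86 of 7544 (1.14%) from endothelial cells, by edgeR's quasi-likelihood test with library as a block. Control enriched held fewer than 10 macrophages and was left out wherever macrophages were fitted. Timp2, Pmp22, S100a6, Mcam and Tagln rose more in CM1 to CM3 than in all 3 of these classes. They were chosen as higher in CM1 to CM3 in the same counts, which favours a difference above 0. Only 8 of the 16 called genes could be tested against endothelial cells. Timp2 rose more by 2.57 on the log2 scale against fibroblasts, 3.09 against macrophages and 2.43 against endothelial cells. Within fibroblasts (188 genes higher, 87 lower) 13 of the 16 genes could be tested, within macrophages (62 and 14) 14, and within endothelial cells 8. None of those tested was called. Endothelial cells had 0 genes called by edgeR and 626 at an unadjusted p under 0.05. Free RNA from other cells can add UMIs to cardiomyocytes, and 8 of the 16 (1500015O10Rik, Timp2, S100a6, Mcam, Ccl17, Col4a4, Cald1 and Tagln) had a level more than 5 times lower than that of another class outside the cardiomyocytes. Against the left-out YAP5SAcm cells, Cemip (25.9-fold), Col4a4 (9.79), Mcam (8.99), Fam107b (6.66) and Pmp22 (6.24) were more than 5 times lower. Mlana was in neither group: its unscaled YAP5SA mean was 0.670 CPM in endothelial cells, 2.88 in macrophages and 2.46 in fibroblasts. In cells without any macrophage or fibroblast marker UMI 82 of 4922 genes were called (68 higher, 14 lower). They included 9 of the 10 called genes that could be tested there, and Myl4 was not called (edgeR adjusted p = 0.154). Such cells numbered 902, 113 and 312 in Control and 230, 36 and 14 in YAP5SA. This choice of cells does not address RNA from the other classes or from YAP5SAcm cells.

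Direct targets of YAP were higher as a list, though none passed on its own. Of 21 targets tested, 0 were called by edgeR and 4 of 22 by DESeq2; 12 were higher and 0 lower at an unadjusted p under 0.05, with a median log2 fold change of 1.503 against 0.03 for all genes. The median target stood at -0.88, -0.22 and -0.65 in Control and 0.41, 0.89 and 0.94 in YAP5SA, as log2 level around each gene's own mean over the 6 libraries. Amotl2, an angiomotin that binds YAP, stood at 32.7, 27.2 and 21.3 CPM in Control and 82.0, 214 and 154 in YAP5SA (2.39, SE 0.43, adjusted p = 0.0786). Crim1, a membrane protein that binds BMPs, stood at 18.6, 27.8 and 22.9 against 56.6, 79.9 and 121.5 CPM (1.86, SE 0.34, 0.0803). Neither gene overlapped between the genotypes. Ajuba, a LIM protein that restrains Lats kinases, had a log2 fold change of 3.13 (0.140). The textbook targets of cultured cells overlapped between the genotypes. Cyr61 (Ccn1) had a log2 fold change of -0.20, with Control and YAP5SA overlapping, and Ctgf (Ccn2) had 1.27, with Control tissue-2 at 602 CPM inside the YAP5SA range of 368 to 858. Ankrd1, a cardiac stress protein, stood at 3134, 15916 and 2810 CPM in Control and 13901, 15661 and 17303 in YAP5SA (1.253, adjusted p = 0.371). Without Control tissue-2, 10 of 21 targets were called higher and 1 lower, beside 7.49% and 7.92% of all genes.

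Components of the Hippo pathway itself had smaller values. Of 13 tested, 0 were called by edgeR, with 4 higher and 0 lower at an unadjusted p under 0.05 and a median of 0.74. Tead1, the main TEAD factor of heart muscle, stood at 89.4, 65.9 and 81.1 CPM in Control and 142, 253 and 283 in YAP5SA (log2 fold change 1.47 with an SE of 0.38, edgeR adjusted p = 0.143). All 3 YAP5SA values were above the Control values. Amotl1, another angiomotin, had 1.38 and Wwc2, a scaffold that activates Lats kinases, had 1.254 (adjusted p = 0.143 and 0.144). The upstream kinases Lats1 (0.01, SE 0.67) and Stk3 (-0.04, SE 0.50) had changes close to 0 with wide errors.

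**Figure D3:**
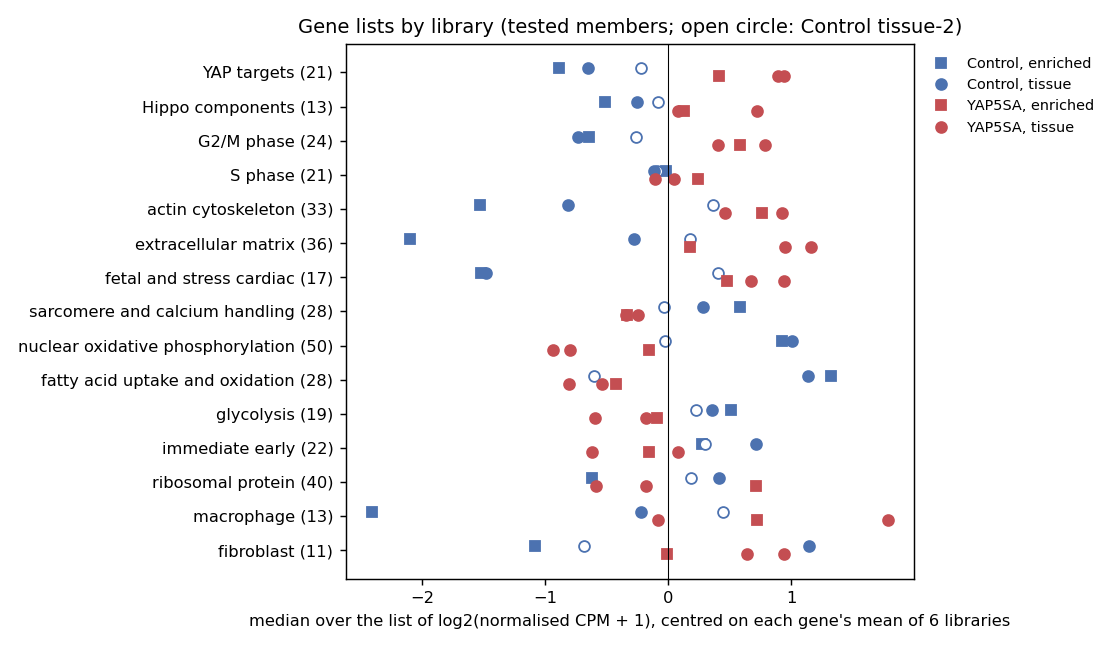
Median over each gene list (tested members in brackets) of log2(normalised CPM + 1) centred on each gene's mean of the 6 libraries, 1 point per library, Control blue and YAP5SA red, with Control tissue-2 as an open circle. YAP targets lie at 0.41 to 0.94 in YAP5SA and -0.88 to -0.22 in Control, and for oxidative phosphorylation and fatty acid oxidation the open circle (-0.03 and -0.61) lies away from the other Control points.

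No gene of energy metabolism was called with all 6 libraries, and edgeR's calls among them depended on Control tissue-2. All 50 nuclear genes of oxidative phosphorylation had a negative log2 fold change, with a median of -1.34. Of these 0 were called by edgeR and 47 were lower at an unadjusted p under 0.05 (8.76% of all genes tested). For 36 all YAP5SA libraries lay below all Control libraries (12.4% of all genes tested). The median of the list stood at 0.93, -0.03 and 1.01 in Control and -0.15, -0.79 and -0.93 in YAP5SA. Sdhb, a subunit of complex II, stood at 3591, 1898 and 3638 CPM in Control and 1242, 719 and 528 in YAP5SA (-1.94, SE 0.44, adjusted p = 0.140). Ndufa9 of complex I had -1.54 (0.143). DESeq2 called 32 of the 50 lower, beside 299 of 10755 for all genes. Without Control tissue-2 edgeR called 47 of 50 lower, and the median was -1.55. With library totals as the only scaling the median of the list was -0.81 and that of all genes 0.52. The 7 mitochondrially encoded genes tested had a median of -0.56, with 0 called and 0 lower at an unadjusted p under 0.05. The median share of mitochondrial UMIs per cell was 14.2%, 7.80% and 16.6% in Control and 10.8%, 12.3% and 10.2% in YAP5SA; its part in these values was not tested.

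Fatty acid oxidation is the main fuel pathway of the adult heart. Of its 28 genes, 0 were called by edgeR, 17 were lower and 0 higher at an unadjusted p under 0.05, and the median log2 fold change was -1.24. The median of the list overlapped between the genotypes, at 1.32, -0.61 and 1.14 in Control and -0.43, -0.54 and -0.81 in YAP5SA, with Control tissue-2 inside the YAP5SA range. For 10 of the 28 genes all YAP5SA libraries lay below all Control libraries (12.4% of all genes tested). Hadhb, a subunit of the trifunctional protein, stood at 1000, 305 and 1400 CPM in Control and 229, 229 and 156 in YAP5SA (-2.14, SE 0.56, adjusted p = 0.143). Echs1, the enoyl-CoA hydratase, stood at 976, 282 and 895 against 190, 188 and 124 CPM (-2.07, 0.143). In these genes Control tissue-2 lay near the YAP5SA libraries but above them. Without it, 22 of 28 genes were called lower, with a median of -1.72, and DESeq2 called 10 lower with all 6 libraries. Glycolysis had a median of -0.61 over 19 genes, 7 of them lower at an unadjusted p under 0.05, among them Pfkm, the muscle form of phosphofructokinase (-1.64), and Pgam2 (-1.27).

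Of 28 genes of the sarcomere and calcium handling, 26 had a negative log2 fold change and 2 a positive one; 0 were called by edgeR, 6 were lower and 1 higher at an unadjusted p under 0.05, with a median of -0.62. Pln, phospholamban, which restrains the calcium pump, stood at 9261, 3438 and 10308 CPM in Control and 2389, 1933 and 1679 in YAP5SA (-1.94, SE 0.50, edgeR adjusted p = 0.143). Tnni3, cardiac troponin I, stood at 16308, 6231 and 14983 against 4032, 3860 and 2240 CPM (-1.87, 0.143). The giant protein titin, Ttn, had a log2 fold change of 0.58 (0.669) and the calcium pump Atp2a2 of -0.43 (0.769). Kcnip2, a subunit of the transient outward potassium channel, stood at 118, 2.88 and 89.4 CPM in Control and 3.12, 0 and 0 in YAP5SA (-5.65, 0.198). Control tissue-2 lay within the YAP5SA range there. Without that library 8 of 28 sarcomere and calcium genes were called lower.

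Among genes of the actin cytoskeleton, the matrix and the fetal heart 5 were called. Of 33 actin cytoskeleton genes 2 were called (S100a6 and Cald1), 12 were higher and 0 lower at an unadjusted p under 0.05, and the median was 1.20. Of 36 matrix genes 2 were called (Timp2 and Col4a4), 16 were higher and 1 lower, with a median of 1.41. Of 17 fetal and stress genes 1 was called (Tagln), 6 were higher and 0 lower, with a median of 1.253. The list medians of Control tissue-2 lay next to YAP5SA. They stood at -1.53, 0.37 and -0.82 in Control and 0.76, 0.46 and 0.93 in YAP5SA for actin genes, and at -1.52, 0.41 and -1.48 against 0.47, 0.67 and 0.94 for fetal and stress genes. For matrix genes they overlapped, at -2.09, 0.178 and -0.28 against 0.174, 0.95 and 1.16. Acta2 stood at 41.6, 166 and 49.0 CPM in Control and 850, 915 and 814 in YAP5SA (log2 fold change 3.44 with an SE of 0.57, edgeR adjusted p = 0.0678). Its YAP5SA values lay close together and each was more than 4 times the highest Control value. Thbs1, thrombospondin, had 2.71 (0.0836), Ahnak, a membrane scaffold, 1.65 (0.114), and Myh9, a non-muscle myosin, 2.23 (0.140). Nppa, the atrial natriuretic peptide gene, had 0.15 with an SE of 2.29. Without Control tissue-2, 22 of 33 actin genes, 17 of 36 matrix genes and 12 of 16 fetal and stress genes were called higher, with 1 matrix gene lower.

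Secreted signals were mixed in number. Of 18 tested genes of a list of cytokines and growth factors 0 were called, 6 were higher and 1 lower at an unadjusted p under 0.05, with a median of 1.47. The called chemokine gene Ccl17 is not in that list. Tgfb3, a growth factor of the TGF-beta family, stood at 2.21, 11.2 and 2.91 CPM in Control and 25.4, 59.3 and 69.5 in YAP5SA (log2 fold change 3.30 with an SE of 0.54, edgeR adjusted p = 0.0670). Ccl2, a monocyte chemokine, had 2.17 (0.0972) and Igf1 2.70 (0.143). Without Control tissue-2, 8 of 17 were called higher and 1 lower. Complement genes had a median of 1.48 over 10 and interferon response genes of 1.07 over 19, with 0 called and 4 and 5 higher at an unadjusted p under 0.05. Macrophage markers moved with these lists. All 13 tested had a positive log2 fold change (median 1.83, 8 at an unadjusted p under 0.05), and they summed to 21.03, 336 and 163 CPM in Control and 463, 370 and 1040 in YAP5SA. The sums of smooth muscle markers were 917, 5985 and 756 CPM against 3179, 2647 and 3139, those of fibroblast markers 142, 294 and 633 against 343, 596 and 511, and those of endothelial markers 334, 296 and 414 against 607, 185 and 282. Without Control tissue-2, 7 of 12 macrophage markers and 3 of 5 smooth muscle markers were called higher. Epicardial markers summed to 2.10, 4.30 and 4.29 CPM in Control and 16.5, 44.6 and 15.5 in YAP5SA. The part of other cells' RNA in the list values was not tested.

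Immediate early genes are switched on within minutes by stress and growth signals. Of 22 genes 0 were called by edgeR, 13 had a negative and 9 a positive log2 fold change, 9 were lower and 2 higher at an unadjusted p under 0.05, and the median was -0.68. The median of the list stood at 0.27, 0.30 and 0.72 in Control and -0.15, -0.62 and 0.08 in YAP5SA. Jun stood at 380, 160 and 307 CPM in Control and 80.2, 41.2 and 32.2 in YAP5SA (log2 fold change -2.51 with an SE of 0.41, edgeR adjusted p = 0.0670). Fos stood at 253, 160 and 380 against 52.1, 49.0 and 67.0 CPM (-2.24, 0.0844). Fosl2, an AP-1 member like both, had 1.78 (0.135). In Jun and Fos the genotypes did not overlap, and Jun was the only gene called lower with library totals as the scaling. Without Control tissue-2, 10 of the 22 genes were called lower and 3 higher. Other lists lay near the median of all genes: heat shock genes at -0.27, genes of the unfolded protein response at -0.16, ribosomal proteins at -0.11, ion channels at -0.09 and antioxidant genes at -0.05.

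Beyond the lists, genes at 5 or more on the log2 CPM scale whose libraries did not overlap were ranked by fold change. Serpinb9b, a serine protease inhibitor, stood at 0, 8.63 and 0 CPM in Control and 76.2, 77.3 and 76.9 in YAP5SA (log2 fold change 4.99 with an SE of 1.55, edgeR adjusted p = 0.215). Col12a1, a fibril-associated collagen, stood at 0, 17.3 and 0 against 63.7, 41.2 and 104 CPM (4.001, 0.378). 2200002D01Rik stood at 2.65, 221 and 3.28 against 304, 299 and 298 CPM (2.71, 0.576). All 3 had nearly all their Control counts in tissue-2. Others did not depend on it: Angptl4, an inhibitor of lipoprotein lipase, stood at 8.85, 12.8 and 12.2 CPM in Control and 37.4, 51.5 and 99.2 in YAP5SA (2.42, SE 0.39, 0.0670), and Gpc4, a glypican, had 2.53 (0.0844). At the other end Yipf7 stood at 344, 36.4 and 289 CPM in Control and 29.4, 12.9 and 24.8 in YAP5SA (-3.28, 0.143), Asb10 had -3.11 and Mtfp1, a protein of mitochondrial fission, -2.55 (0.0861). Rxrg, a retinoid X receptor, had -2.54, and Tuba8, a tubulin, went from 253, 87.0 and 218 to 67.3, 36.1 and 17.4 CPM (-2.29, 0.111). None of these passed with all 6 libraries.

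The make-up of CM1 to CM3 differed between the genotypes. CM2 made up 13.6%, 13.3% and 20.8% of CM1 to CM3 cells in Control and 44.2%, 30.5% and 32.9% in YAP5SA, 19.97 percentage points more on average. CM1 made up 51.0%, 59.3% and 50.9% in Control and 34.8%, 25.95% and 34.2% in YAP5SA, 22.1 points less. The genotypes did not overlap in either share, and with labels exchanged within preparation the exact two-sided permutation p was 0.167 for both, the smallest that 12 arrangements allow. CM3 overlapped, at 35.4%, 27.4% and 28.3% against 21.03%, 43.5% and 32.9% (2.13 points, exact permutation p = 0.667). CM2 cells were shallower than CM1 cells, with a median of 1202, 1469 and 2155 UMIs in Control and 1169, 1020.5 and 989.5 in YAP5SA, against 4525.5 to 8638.5 in CM1 outside Control enriched (3516). A second cluster column of the authors' table kept the genotypes apart. It put 507 of 523, 130 of 131 and 76 of 79 YAP5SA cells of CM1 to CM3 in clusters named Y5SA-1 to Y5SA-3, and 4 Control cells, all of tissue-2. The Control cells lay in clusters of that column named CM1, CM2 and CM3: 1046 of the 1052 enriched cells in its CM2, 521 of the 526 tissue-2 cells in its CM3 and 1092 of the 1140 tissue-3 cells in its CM1. By that column the compared cells of the genotypes are thus in different clusters. Its cluster Y5SA-2 held most YAP5SA CM2 cells (164 of 231, 29 of 40 and 20 of 26) and 0 Control CM1 to CM3 cells. With Y5SA-2 left out as well, 1 gene was called over the remaining cardiomyocytes, Mlana. With 27, 26 and 26 cells of CM1, CM2 and CM3 drawn from each library, 10 genes were called, 9 higher and 1 lower. Both of these settings were added after the data had been seen. The authors drew the clusters from the same transcripts that are compared here, a limit on every result by cluster.

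Fitted in CM2 alone, 124 of 2639 genes were called, 83 higher (3.15%) and 41 lower (1.55%). Of the 16 genes called above, 12 could be tested there and 11 were called, all but Myl4 (edgeR adjusted p = 0.0920). S100a6 stood at 31.3, 65.7 and 81.4 CPM in Control CM2 and 799, 1659 and 1936 in YAP5SA CM2 (log2 fold change 4.596, SE 0.50, 0.00159). Tmsb10, a thymosin that binds actin monomers, stood at 15.7, 18.8 and 14.5 against 244, 477 and 465 CPM (4.56, SE 0.51, 0.00159). Acta2 stood at 47.0, 122 and 98.9 against 2501, 2841 and 1316 CPM (4.68, SE 0.61, 0.00465). Every YAP5SA value of these genes was far above the Control values. The count of 124 was 32 without the enriched library of Control, 669 without its tissue-2 and 15 without its tissue-3, and 23, 5 and 7 without the YAP5SA libraries in the same order as before.

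Members of several lists were called in CM2, where 3.15% of all genes tested were called higher and 1.55% lower. Of 29 actin cytoskeleton genes 11 rose and 0 fell (median 1.85, against 0.05 for all genes). Of 14 matrix genes 4 rose, and of 7 YAP targets 1, Amotl2 (3.50); Tead1 (2.06), Csf1, a macrophage growth factor (2.89), and Tgfb3 (3.32) rose too. Of 21 fatty acid oxidation genes 6 fell (median -2.02). Hadhb went from 878, 253 and 1157 to 97.6, 104 and 77.4 CPM (-3.04, SE 0.64, 0.0312), and Acadm, the medium-chain acyl-CoA dehydrogenase, changed by -2.94 (0.0421). Of 26 sarcomere and calcium genes 2 fell, Hrc, a calcium-binding protein of the sarcoplasmic reticulum (-3.13), and Pln, which went from 10547, 2656 and 9740 to 1049, 1141 and 800 CPM (-2.90, 0.0387). Of 50 nuclear oxidative phosphorylation genes only 1 fell, Ndufa9 (-2.35), which is near the share of all genes called lower. The median of that list was -1.57.

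The genotype effect in CM2 was then tested against that in CM1 within the same libraries, a comparison added after the data had been seen. It differed for 179 of 4319 genes, above 0 for 45 (1.04%) and below 0 for 134 (3.1%), with a median of -0.07 over all genes. Contractile genes made up many of the latter: 20 of 28 genes of the sarcomere and calcium handling had a lower effect in CM2 and 1 a higher effect (Myoz2, 0.89). Ttn stood at 3236, 619 and 3190 CPM in Control CM2 and 718, 2074 and 1007 in YAP5SA CM2, but at 2432, 678 and 1397 and at 1794, 3634 and 2504 in CM1. Its effects differed by -1.87 (SE 0.25, edgeR adjusted p = 6.65e-07), although in neither cluster did the genotypes separate. Atp2a2 stood at 5133, 732 and 4825 CPM against 287, 1555 and 1084 in CM2, and at 4843, 1277 and 4050 against 1865, 3834 and 4000 in CM1 (difference -2.07, SE 0.26). Actn2, alpha-actinin of the Z-disc, did separate in CM2, at 878, 1173 and 829 against 436, 373 and 490 CPM, while in CM1 it stood at 968, 1275 and 718 against 893, 901 and 968 (-1.23, SE 0.25, 0.000490). Nrap, which helps assemble myofibrils, fell in CM2 from 501.5, 535 and 305 to 144, 83.0 and 77.4 CPM (-2.13, 0.0376) and had 0.00 in CM1. The 7 mitochondrially encoded genes tested all had a lower effect in CM2 (median -1.26), beside a median mitochondrial share of CM2 cells of 15.4%, 7.18% and 25.3% in Control and 10.3%, 7.70% and 3.92% in YAP5SA. A lower effect was also found for 8 of 25 fatty acid oxidation genes and 9 of 50 oxidative phosphorylation genes.

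Genes with the larger rise in CM2 included membrane and actin partners. Of 31 actin cytoskeleton genes 6 had a higher effect in CM2 than in CM1 (median 0.72). Cobl, an actin nucleator, stood at 7.84, 46.9 and 23.3 CPM in Control CM2 and 640, 622 and 258 in YAP5SA CM2, and in CM1 at 14.9, 37.3 and 17.9 against 48.7, 39.0 and 40.3 (difference 3.16, SE 0.53, edgeR adjusted p = 2.6e-05). S100a10, the partner of annexin A2, stood at 39.2, 469 and 84.3 against 1393, 1514 and 2478 CPM in CM2 and at 13.1, 262 and 22.5 against 169, 43.8 and 181 in CM1 (2.41, SE 0.35, 2.3e-06). In CM1 the genotypes overlapped for S100a10, and in CM2 they did not. Serpinb9b had 1 UMI in Control CM2 and 203 in YAP5SA CM2, an unscaled ratio of 399 with a 95% counting interval from 70.9 to 15856. In CM1 it stood at 0, 9.79 and 0 CPM against 7.65, 9.74 and 20.2 (difference 5.01, 0.00823). Of the 124 genes called in CM2, 118 were tested for this difference and 39 passed. The split depended on the scaling: with library totals 100 genes were above 0 and 54 below, among all genes with a median of 0.22, and 14 of 28 sarcomere and calcium genes still had a lower effect. Leaving out each library in turn, 10 to 20 of the 28 did.

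**Figure D4:**
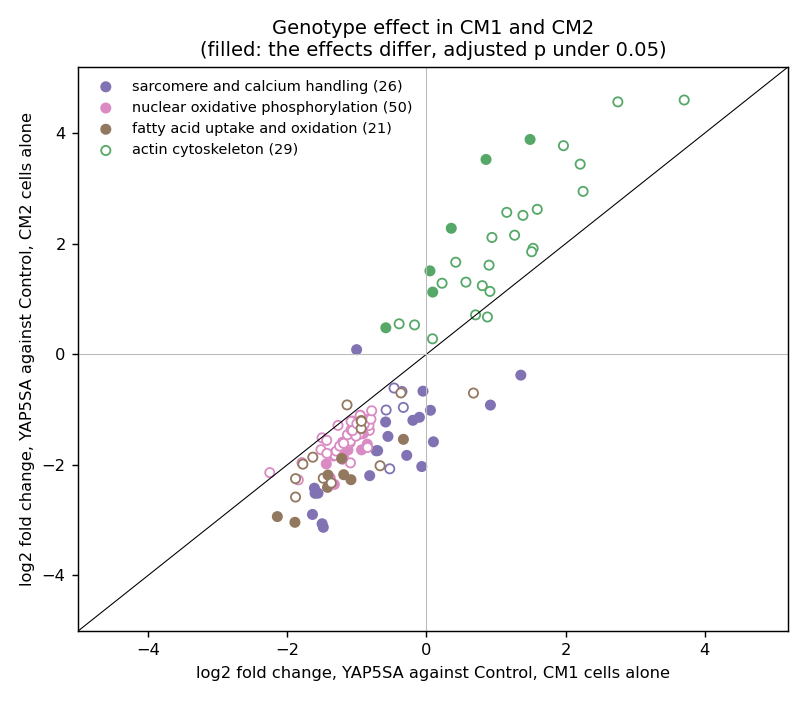
Log2 fold change of YAP5SA against Control in CM1 alone (horizontal) and in CM2 alone (vertical) for genes of the sarcomere and calcium handling (26), oxidative phosphorylation (50), fatty acid oxidation (21) and the actin cytoskeleton (29), filled where the effects differ at an adjusted p under 0.05, with a line of equality. Most sarcomere points lie below the line (Ttn at 0.92 in CM1 and -0.92 in CM2), and filled actin points lie above it.

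Cell cycle genes were few in UMIs. Of 24 G2/M genes tested 0 were called by edgeR, 11 were higher and 1 lower at an unadjusted p under 0.05, with a median log2 fold change of 0.99. Mki67, the proliferation marker, stood at 0.442, 3.84 and 0.911 CPM in Control and 9.35, 15.5 and 34.7 in YAP5SA (3.62, SE 0.71, adjusted p = 0.0919). Anln, anillin of the cleavage furrow, had 3.86 (0.126). Without Control tissue-2, 7 of 20 G2/M genes were called higher and 1 lower. Of 21 S phase genes 3 were higher and 2 lower at an unadjusted p under 0.05, with a median of 0.22, which was -0.20 without preparation as a term and 0.73 with library totals. Rrm2, a subunit of ribonucleotide reductase, stood at 3.10, 1.60 and 2.55 against 10.7, 15.5 and 32.2 CPM (2.89, 0.112). Gmnn, geminin, which blocks relicensing of replication origins, went the other way, from 126.5, 44.1 and 148 to 50.3, 12.9 and 9.92 CPM (-2.33, 0.143). Of 14 G1 genes 3 were higher, among them cyclin D2 (Ccnd2), at 71.7, 74.8 and 63.4 against 128, 198 and 179 CPM (1.24, 0.143). Of the genes named here, Gmnn alone overlapped between the genotypes, and none passed.

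By the authors' cell cycle phase, 3.52% (37 of 1052), 1.90% (10 of 526) and 3.68% (42 of 1140) of Control cells were in S or G2M. In YAP5SA the shares were 8.22% (43 of 523), 6.11% (8 of 131) and 12.7% (10 of 79). The mean difference was 5.96 percentage points, the genotypes did not overlap, and the exact permutation p was 0.167, the smallest possible. G2M alone covered 6, 2 and 3 Control cells and 17, 4 and 6 YAP5SA cells. Within the clusters the shares were 1.49%, 0.321% and 0.517% against 1.65%, 2.94% and 7.41% in CM1 and 6.99%, 5.71% and 10.1% against 13.0%, 10% and 26.9% in CM2 (exact permutation p = 0.167 and 0.333). The genotypes overlapped slightly in CM2, with Control tissue-3 at 10.1% and YAP5SA tissue-1 at 10%. CM3 overlapped too, at 5.11%, 3.47% and 4.64% against 9.09%, 5.26% and 3.85% (exact permutation p = 0.333). Of CM1 and CM2, CM2 had the higher share in every library, and CM2 also made up more of the CM1 to CM3 cells in YAP5SA than in Control; the part of this in the pooled share was not tested. The left-out YAP5SAcm cells of the YAP5SA libraries had 19.96%, 18.4% and 21.7%. Thinned to 1000 UMIs a cell, 54.4%, 56.5% and 52.4% of Control cells and 67.3%, 65.7% and 81.0% of YAP5SA cells held a UMI of 93 S and G2/M genes (16.9 points, exact permutation p = 0.167). Without thinning the means were 86.7% and 87.1%. Endothelial cells of the same libraries, treated alike, differed by 7.89 points (82.4%, 86.0% and 81.7% against 87.0%, 93.8% and 92.9%, exact permutation p = 0.167), but only 170 of 283, 50 of 95 and 661 of 829 of those cells were deep enough in the Control libraries, and 185 of 242, 81 of 138 and 84 of 139 in the YAP5SA libraries. Thinned to 500 UMIs, which each of these cells reached, endothelial cells differed by 3.14 points and the genotypes overlapped (exact permutation p = 0.5), while CM1 to CM3 cells differed by 15.8 points (p = 0.167). The part of free RNA in these shares was not tested, and phase calls alone do not show division.

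**Figure D5:**
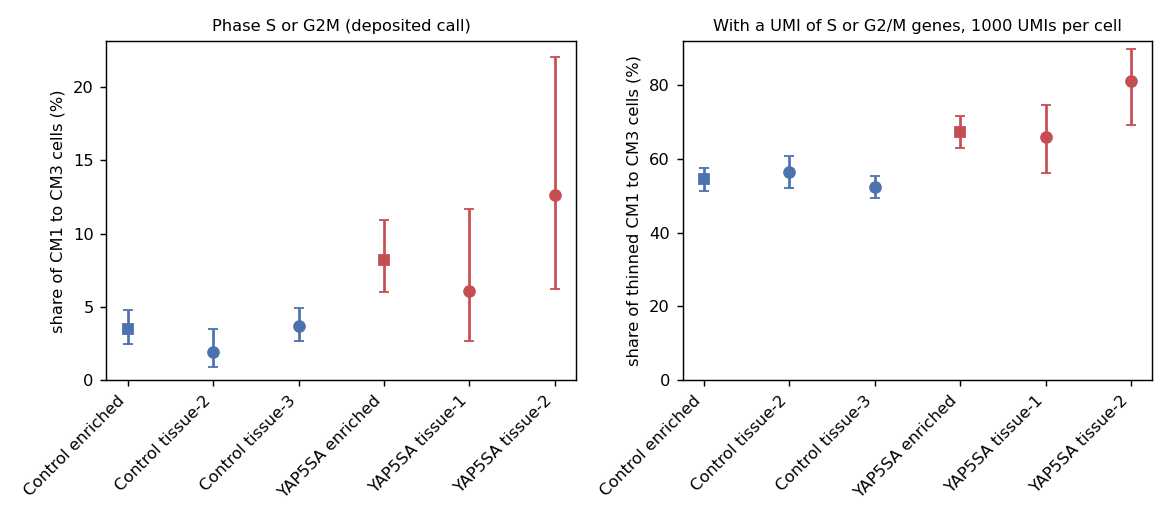
Left, share of CM1 to CM3 cells in S or G2M by the authors' phase, per library, with 95% Clopper-Pearson intervals that cover counting error only; right, share of cells thinned to 1000 UMIs that hold an S or G2/M gene UMI. The YAP5SA libraries lie at 6.11% to 12.7% and 65.7% to 81.0%, above the Control libraries in both panels.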

How the data were processed

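The deposited table of raw UMI counts per cell, with the authors' table of cell names, libraries, clusters and cell cycle phases and a mitochondrial fraction per cell, was used. The authors counted reads with Picard, STAR and Seurat 2.3.4 among their tools, per the submitters' processing notes; the genome build and the cell filters are not given in the sources used here. The members and gene lists were chosen with earlier results of these data known. Joined gene names (852) were merged into 697 families, leaving 21288 features, and 1234 features counted in only 1 annotation (0.144% to 0.239% of UMIs) were left out. No doublet caller was run. Libraries were named after the deposited cell names, and the match of YAP5SA tissue-1 and tissue-2 to the numbered titles is not settled. Counts of CM1, CM2 and CM3 cells were summed per library and tested with edgeR 4.0.16 in R 4.3.3 (filterByExpr, TMM scaling, robust quasi-likelihood F test, preparation and genotype as terms, Benjamini-Hochberg adjustment over all genes). SEs are the fold change divided by the root of F. Differences between clusters or classes were interaction terms with library as a block. DESeq2 1.42.0 was an alternative, with other scalings, filters, subsets of cells and libraries left out in turn. The test was checked on simulated counts. Shares were compared by exact two-sided permutation within preparation (scipy 1.17.1), with Clopper-Pearson intervals. For thinning to 1000 UMIs, at least 79.7% of the CM1 to CM3 cells of each library were deep enough, and fewer of the endothelial cells. Promoters came from RefSeq (GRCm38.p6).

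Named genes were Yap1, all called genes, up to 10 genes each way by fold change among those at 5 or more on the log2 CPM scale that did not overlap, agreed in direction in both preparations and were not more than 5-fold below another class of at least 100 cells, and the 3 genes of smallest p in each of 23 pathway lists. Of 701 list genes 689 were matched. Other genes were named after their values were seen.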

Additional observations from a re-analysis of the deposited data

Results flagged for a closer look

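Of the 16 genes called in CM1 to CM3, 14 had a genotype effect that differed by edgeR's interaction test from that in another class of the same hearts. All of these differences were positive, but the genes were chosen as higher in CM1 to CM3, which favours that sign. Over all genes 90 differences were above 0 and 34 below against fibroblasts, 136 and 133 against macrophages, and 81 and 5 against endothelial cells.

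Against fibroblasts the difference in log2 fold change was 7.19 for Ccl17, 7.12 for Cemip, 6.61 for 1500015O10Rik, 6.04 for Vgll3 and 6.02 for Col4a4. It was 4.80 for Tagln, 4.49 for 1190002F15Rik, 3.22 for Mcam, 3.18 for Myl4, 2.90 for S100a6, 2.57 for Timp2 and 2.21 for Pmp22. The adjusted p ran from 2.45e-08 (1500015O10Rik and Col4a4) to 0.0160 (Pmp22). Ccl17, Cemip, 1500015O10Rik, Vgll3 and Col4a4 had 0 CPM in fibroblasts of Control enriched. Unscaled fibroblast levels of Ccl17 were 0, 26.2 and 0 CPM in Control and 3.27, 4.39 and 3.87 in YAP5SA. Those of Vgll3 were 0, 118 and 32.0 against 44.7, 37.6 and 41.1 CPM. The part of Control tissue-2 fibroblasts in these differences was not tested.

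Against macrophages, fitted without Control enriched, it was 5.09 for 1190002F15Rik, 4.50 for Tagln, 3.78 for Mcam, 3.75 for Myl4 and 3.55 for Cald1. It was 3.09 for Timp2, 2.83 for Fam107b, 2.65 for Pmp22 and 2.16 for S100a6. The value of Fam107b is at the edge of the threshold (adjusted p = 0.0498).

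Against endothelial cells it was 3.50 for Tagln, 3.35 for Mcam, 3.09 for S100a6, 2.67 for Cald1, 2.43 for Timp2 and 1.72 for Pmp22. Fitted folds of genes with few Control UMIs depend on the prior count. Groups of 3 libraries were too small to test whether a single library stands apart, so the calls in CM1 to CM3 are given with each library left out in turn.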

How the results depend on the processing

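With a replicate block of 3 pairs, added after seeing the data, 229 genes were called (139 higher, 90 lower), all 16 among them, and 32 further named genes passed. The sample titles number the tissue libraries alike in both genotypes and the cell names do not, so 1 pair is the libraries left over, and nothing in the labels ties a number to a shared animal or day. The deviations of the pairs from their genotype means correlated by -0.116, 0.173 and -0.0494 over 10336 genes. Combinations outside the pairs ran from -0.169 to 0.230, the highest for Control tissue-3 with YAP5SA enriched. The library numbers were not taken to pair the libraries. The count of 16 genes was 16 with RLE size factors and 15 with joined names kept. With equal cells per library, where 8 of the 16 could be tested and 5 were called, it was 17. It moved to 517 with DESeq2, 786 without a filter on low counts, 110 with library totals (109 higher, 1 lower), 3 without preparation as a term, 0 in the tissue libraries alone, 82 in cells without macrophage or fibroblast marker UMIs and 2997 with YAP5SAcm included. It was 2, 124 and 2 in CM1, CM2 and CM3 alone. Settings added after seeing the data gave 0 in the 4 libraries with joined names (1742 at an unadjusted p under 0.05), 1 without the cluster Y5SA-2 and 10 with equal cells of each cluster. Leaving out each library gave 0 to 1522. All 16 genes were called with RLE, DESeq2, library totals, no filter and without Control tissue-2, and 15 with YAP5SAcm included (Myl4, adjusted p = 0.0576). Library totals gave 561, 505 and 368 differences against fibroblasts, macrophages and endothelial cells, and no filter gave 130 for endothelial cells. For CM2 alone library totals gave 198 genes and leaving out each library 5 to 669. For CM2 against CM1 leaving out each library gave 55 to 150, and library totals 154. The CM3 share turned to -3.39 points without YAP5SA tissue-1 (range -3.39 to 7.85), and was 10.4 in the tissue libraries. The CM1 share ranged from -23.7 to -19.3 and the CM2 share from 15.8 to 22.6 over the libraries left out, and the tissue libraries gave -25.0 and 14.7. The S or G2M share ranged from 4.13 to 7.41 and the thinned share from 12.1 to 19.7. The cause of these moves was not tested. Depth limits the genes with few UMIs: in YAP5SA tissue-1 and tissue-2, 1 UMI was worth 3.19 and 3.10 CPM.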
